A study of Mus musculus with 6 samples.

Results

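Hand1, Hand2, Mef2a, Mef2c, Mef2d, Smyd1 and Hopx, genes for the Hand and MEF2 transcription factors of the heart with 2 partners, were taken by gene symbol from a table of 23284 genes, and all 7 were present in it. The RNA came from the ventricles of C57BL/6 chimeric embryos at E9.5, 3 of them WT and 3 KD (genotype Tbx5ua -/-), made by tetraploid complementation from C57BL/6J-derived ES cells. In the KD ES cells polyadenylation signals had been inserted into both alleles of Tbx5ua, the lncRNA transcribed divergently from Tbx5, so that its transcription ends early, and the selection cassettes had been removed with Cre. The ES cells were clonal, and the labels do not say which clone gave which embryo. Expression is given as FPKM, a count of fragments divided by transcript length and library size, with 1 value that pools the 3 WT embryos and 1 that pools the 3 KD embryos. No SD, interval or test between the groups could therefore be computed here, library depths are unknown, and every difference below is a difference between 2 pooled values without a replicate check.

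Hand1 and Hand2 encode basic helix-loop-helix proteins that bind DNA as dimers, usually with the widely expressed E-proteins, while Id proteins take E-proteins out of such dimers. In the early mouse heart Hand1 is known as a gene of the left ventricle and Hand2 as a gene of the right ventricle and outflow tract. Mef2a, Mef2c and Mef2d encode MADS-box factors that switch on muscle genes and are held in check by class IIa histone deacetylases. Smyd1, also called Bop, encodes a muscle-restricted histone methyltransferase that is a target of Mef2c in the anterior heart field and is needed for Hand2 expression and for sarcomere assembly. Hopx encodes a small homeodomain protein that does not bind DNA, lies downstream of Nkx2-5 and restrains serum response factor.

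The labelled tissue was checked against marker genes. All 8 cardiomyocyte markers were present, from 9.49 FPKM for Ttn to 13643 FPKM for Myl7 in WT. The liver and yolk sac markers stayed at or below 0.425 FPKM in WT and 0.790 in KD, with Alb and Fgb listed at 0 in both groups. The 5 neural crest markers stayed at or below 0.363 FPKM in both groups. The group labels were not checked against the targeted gene, since Tbx5ua is not analysed here. A gene was kept for the background when it had at least 1 FPKM in either group, which left 11606 genes, the 7 genes among them.

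Promoter windows from RefSeq on GRCm38.p6, from 250 bases before to 50 bases after a transcript start, were held for 6 of the 7 genes, 9 windows in all. For Hand1 no window was held. The Hand2 window is shown because RefSeq places a start of the lncRNA Hand2os1 inside it, 124 bases upstream of the Hand2 start and on the opposite strand. In the Hand2 window, chr8:57320733-57321032 on the plus strand, capitals mark the 223 bases that it shares with the window of Hand2os1.
Hand2: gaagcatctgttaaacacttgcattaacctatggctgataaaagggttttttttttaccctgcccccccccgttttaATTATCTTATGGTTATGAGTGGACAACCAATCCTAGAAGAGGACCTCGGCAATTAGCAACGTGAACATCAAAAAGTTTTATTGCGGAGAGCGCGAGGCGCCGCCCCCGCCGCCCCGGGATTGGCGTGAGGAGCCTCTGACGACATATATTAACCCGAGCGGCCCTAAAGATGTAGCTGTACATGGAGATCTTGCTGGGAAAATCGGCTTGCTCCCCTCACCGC
The Mef2a and Hopx windows are shown because each holds a muscle factor motif that is rare among promoters. The Mef2a window, chr7:67372809-67373108 on the minus strand, holds 1 match to the MEF2 consensus, CTAAAAATAG, which begins 2 bases before the transcript start (position -2) and is in capitals.
Mef2a: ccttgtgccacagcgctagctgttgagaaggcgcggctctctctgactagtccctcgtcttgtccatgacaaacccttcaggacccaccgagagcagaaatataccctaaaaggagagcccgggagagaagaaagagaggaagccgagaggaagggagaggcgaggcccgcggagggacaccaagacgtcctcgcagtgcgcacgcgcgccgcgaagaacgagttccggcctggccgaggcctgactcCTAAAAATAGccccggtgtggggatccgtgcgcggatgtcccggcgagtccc
The upstream Hopx window, chr5:77115074-77115373 on the minus strand, holds 1 match to the CArG box of serum response factor, CCAAATAAGG, at position -83 from the transcript start, in capitals.
Hopx: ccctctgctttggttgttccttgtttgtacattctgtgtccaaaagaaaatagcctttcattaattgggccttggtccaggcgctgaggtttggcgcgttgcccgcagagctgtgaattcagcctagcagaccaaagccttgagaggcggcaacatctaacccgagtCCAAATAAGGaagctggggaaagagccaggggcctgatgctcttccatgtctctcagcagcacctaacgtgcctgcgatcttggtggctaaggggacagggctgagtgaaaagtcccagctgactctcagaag

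Searched on both strands, the MEF2 consensus was present in 0.557% of the 32851 RefSeq promoter windows of this length and in 1 of the 9 windows of these genes. The CArG box was present in 1.63% of all windows and likewise in 1 of the 9. The T-box half-site, spelled GGTGTGA, was in 3.98% of all windows and in 0 of the 9, which says only that these letters are not in these windows. The E-box, spelled CANNTG and the kind of site that Hand dimers bind, was in 72.3% of all windows and in 5 of the 9, both Hopx windows, the Hand2 window and 2 of the 3 Mef2c windows. The motifs searched can overlap each other. A match describes the letters and is not a measured binding site.

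Among the 7 genes, the KD value departed from the WT value by 10.5% of the latter at most, for Hopx. The ratio of KD to WT ran from 0.904 for Smyd1 to 1.11 for Hopx. On the scale of log2(FPKM + 1), KD minus WT, the 7 differences ran from -0.15 to 0.14 with a median of 0.05, beside a median of 0.00 over all kept genes. Hand1, Hand2, Hopx and Mef2d were higher in KD and Smyd1, Mef2a and Mef2c were lower. Past 1.5-fold on that scale, which is the scale of every such count below and understates the change of low genes, there were 0 of the 7 in either direction, where 2.2% of the kept genes were higher and 1.46% lower in KD. By the plain ratio of FPKM values there were likewise 0 of the 7, where 4.62% of the kept genes above 0 in both groups were higher and 3.1% lower. Past a log2 difference of 0.32 there were again 0 of the 7, where 8.8% of the kept genes were higher and 6.4% lower. Small differences were common in this table, and 50.9% of the kept genes were higher in KD. The largest of the 7 on the log2(FPKM + 1) scale, that of Smyd1, was exceeded in size by 47.0% of the kept genes, and 5 of the 7 were at or below the median absolute log2 difference of all kept genes, 0.13.

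**Figure D1:**
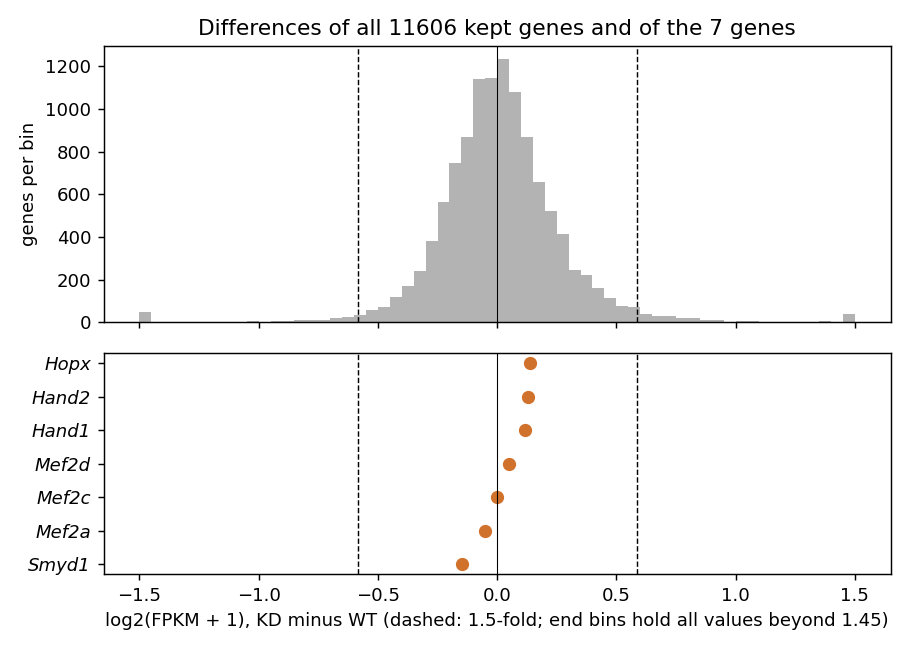
Upper panel, a histogram of log2(FPKM + 1) differences, KD minus WT, over the 11606 kept genes; lower panel, the same difference for each of the 7 genes as a point, with dashed lines at 1.5-fold. The 7 points lie between -0.15 and 0.14, inside the dashed lines and near the centre of the histogram.

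The Hand genes stood at different levels. Positions here are on mm10 (GRCm38). Hand1 (chromosome 11, 57828713 to 57832147, minus strand) had 86.8 FPKM in WT against 94.1 in KD. Hand2 (chromosome 8, 57320983 to 57324517, plus strand) had 17.3 FPKM in WT against 19.1 in KD. Both group values were higher in KD, by 8.47% for Hand1 and 10.1% for Hand2, log2 differences of 0.12 and 0.13. Many kept genes differed by more than either, 55.4% for Hand1 and 51.0% for Hand2. FPKM is scaled to transcript length, so levels can be set side by side between genes, and the level of Hand1 was 5.01 times that of Hand2 in WT and 4.93 times in KD. Hand1 lay above 88.7% of the kept genes in WT and Hand2 above 63.8%. In bulk tissue, fewer cells that express a gene and less RNA per cell cannot be told apart, here and for every gene below. The paper reports a hypoplastic right ventricle in KD embryos at E9.5, and its part in the values of chamber-restricted genes was not tested.

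The MEF2 genes had the smallest differences. Mef2c (chromosome 13, 83504034 to 83667079, plus strand), the MEF2 gene that the looping heart tube requires, had 23.3 FPKM in WT against 23.2 in KD. Its log2 difference was -0.0024, and 99.1% of the kept genes differed by more. Mef2a (chromosome 7, 67233827 to 67372858, minus strand) had 14.2 FPKM in WT against 13.6 in KD, a log2 difference of -0.05. Mef2d (chromosome 3, 88142395 to 88169167, plus strand) had 10.8 FPKM in WT against 11.2 in KD, a log2 difference of 0.05. The directions were thus mixed. With the group sums of FPKM made equal the signs were as before, and the log2 differences were -0.08 for Mef2a, -0.03 for Mef2c and 0.02 for Mef2d. Summed, the 3 genes came to 48.2 FPKM in WT against 48.1 in KD. Mef2c held 48.3% of that sum in WT and 48.3% in KD, Mef2a 29.4% and 28.4%, and Mef2d 22.3% and 23.3%. Mef2b, the remaining family member, was below 1 FPKM in both groups, at 0.367 FPKM in WT against 0.177 in KD.

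Smyd1 (chromosome 6, 71213940 to 71262281, minus strand) was the highest of the 7 genes, with 193 FPKM in WT against 174 in KD. It lay above 94.2% of the kept genes in WT. It was lower in KD by 18.6 FPKM (log2 difference -0.15), and its rank among the kept genes went from 671 in WT to 724 in KD. Its level was 8.27 times that of Mef2c in WT and 7.49 times in KD. Hopx (chromosome 5, 77086986 to 77115123, minus strand) had 18.3 FPKM in WT against 20.2 in KD, a log2 difference of 0.14. The difference was in the same direction and of much the same size as for Hand2, which is itself near the level of Hopx.

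**Figure D2:**
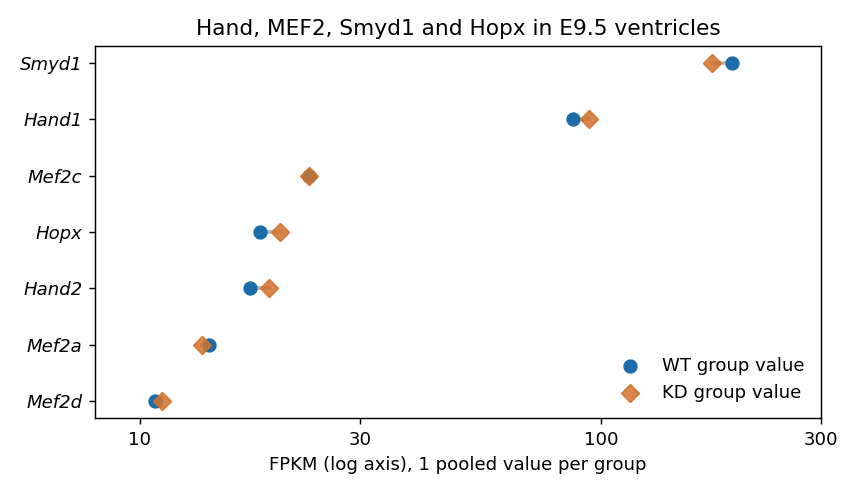
FPKM of each of the 7 genes on a log axis, circles for the WT group value and diamonds for the KD group value, joined by a line. The order of the genes is the same in both groups, from Smyd1 at 193 and 174 FPKM down to Mef2d at 10.8 and 11.2 FPKM.

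The order of levels was Smyd1, Hand1, Mef2c, Hopx, Hand2, Mef2a and Mef2d in WT, and the same in KD. Smyd1 stood 17.9 times above Mef2d in WT and 15.6 times in KD. Because the spread over embryos is unknown, it cannot be said which neighbours in that order differ beyond it. Hopx and Hand2 were the closest neighbours, at 18.3 and 17.3 FPKM in WT and at 20.2 and 19.1 FPKM in KD.

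The dimer partners and antagonists of the Hand proteins were also read. The gene lists here and below were chosen with earlier results of these data known, so counts in them are no independent support. Of 9 genes for E-proteins, Id proteins and Twist proteins, 8 were kept and 0 were past 1.5-fold on the log2(FPKM + 1) scale. Of the 8, 7 were higher and 1 lower in KD, where 50.9% of the kept genes were higher, and the median log2 difference was 0.14. Among the genes of this list at 10 FPKM or more in either group the median was 0.06. All 3 E-protein genes had a higher value in KD. Tcf4 had 3.01 FPKM in WT against 4.36 in KD (log2 difference 0.42), Tcf3 had 17.6 FPKM in WT against 20.5 in KD, and Tcf12 had 9.98 FPKM in WT against 10.4 in KD. Twist1, a basic helix-loop-helix gene of mesenchyme, had the highest log2 difference of this list, 0.51, at 1.98 FPKM in WT against 3.23 in KD, and its plain ratio of 1.63 is past 1.5-fold. The 6 kept epicardial markers, given below, were also higher in KD, and their part in the values of this list was not tested. Id1, a target of BMP signalling, had the lowest, -0.21, at 158 FPKM in WT against 136 in KD. The summed RNA level of Hand1 and Hand2 was 3.40 times that of the 3 E-protein genes in WT and 3.21 times in KD. The summed level of the 4 Id genes was 7.34 times that of the Hand genes in WT and 6.804 times in KD. These are ratios of RNA over the mixed cells of the tissue and give no balance of proteins or dimers.

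Of 12 genes listed as regulators and cofactors of the MEF2 proteins, the family member Mef2b among them, 11 were kept, without Mef2b, and 0 were past 1.5-fold. Of the 11, 10 were higher and 1 lower in KD, where 50.9% of the kept genes were higher, and the median log2 difference was 0.06. The median was 0.03 at 10 FPKM or more, and 0.03 with group sums made equal, where 9 were higher and 2 lower. With equal sums 45.1% of the kept genes were higher in KD. The lowest value was that of Hdac5, a class IIa histone deacetylase that represses MEF2 proteins, with 22.4 FPKM in WT against 20.2 in KD (log2 difference -0.14). The highest was that of its relative Hdac9, with 3.43 FPKM in WT against 4.76 in KD (0.38). The summed MEF2 RNA level was 1.48 times that of the 4 class IIa deacetylase genes in WT and 1.504 times in KD, which gives no ratio of proteins.

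Of 12 genes known as MEF2 targets, 1 of them, Myocd, also among the regulators, 11 were kept. Of these 5 were higher and 6 lower in KD, where 50.9% of the kept genes were higher, and the median log2 difference was -0.01. With group sums made equal the median was -0.04, with 4 higher and 7 lower, where 45.1% of the kept genes were higher. Past 1.5-fold there was 1, Tdgf1, lower in KD, where 1.46% of the kept genes were lower by that much. Tdgf1 encodes the Nodal co-receptor Cripto and is active in the outflow tract. Tdgf1 had 2.19 FPKM in WT against 0.720 in KD, a log2 difference of -0.89, and at this low level the unknown depth limits how firmly the difference can be read. Ckm, the muscle creatine kinase gene, had the highest log2 difference of the list, 0.39, at 1.78 FPKM in WT against 2.63 in KD. Mef2c had nearly equal group values, and a link between the values of Mef2c and Tdgf1 was not tested. Of the 6 markers listed for the outflow tract and second heart field, 5 were kept, and 5 were lower in KD, where 49.1% of the kept genes were lower. Their log2 differences ran from -0.52 to -0.04, and 1, Fgf8, was past 1.5-fold by the plain ratio only. The summed level of all 6 markers was 23.1 FPKM in WT against 18.6 in KD, and no single marker was at 0. The part of outflow tract and second heart field cells in the Tdgf1 value was not tested.

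Of 8 relatives and partners of Smyd1, 0 were past 1.5-fold, with 1 higher and 7 lower in KD and a median log2 difference of -0.16, where 49.1% of the kept genes were lower in KD. Naca, whose muscle form skNAC binds Smyd1, had 847 FPKM in WT against 804 in KD (log2 difference -0.08). The table gives 1 value for the Naca gene and does not separate its muscle form. Hsp90aa1, a chaperone gene, had the lowest value of the list, -0.37, at 771 FPKM in WT against 597 in KD. Smyd3 had the highest, 0.13, at 2.25 FPKM in WT against 2.55 in KD. Smyd1 held 55.3% of the summed level of Smyd1 to Smyd5 in WT and 54.3% in KD.

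Of 5 partners of Hopx, 0 were past 1.5-fold, with a median log2 difference of 0.14. Epc1, a chromatin protein gene, had the highest value of the list, 0.24, at 7.28 FPKM in WT against 8.79 in KD. Hdac2, the deacetylase that Hopx recruits, had the lowest, -0.16, at 44.7 FPKM in WT against 40.02 in KD. Srf, the factor that Hopx restrains, had 8.41 FPKM in WT against 7.91 in KD. Nkx2-5, which lies upstream of Hopx, had 224 FPKM in WT against 247 in KD (log2 difference 0.14), and its level was 12.3 times that of Hopx in WT and 12.2 times in KD.

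Of 10 factors upstream or downstream of these genes, 2 of them, Nkx2-5 and Gata4, also among the partners of Hopx, 9 were kept. Of these 4 were higher and 5 lower in KD, where 49.1% of the kept genes were lower, and the median log2 difference was -0.13. Past 1.5-fold there was 1, Foxh1, lower in KD, where 1.46% of the kept genes were lower by that much. Foxh1, a forkhead factor that acts with Nkx2-5 on an enhancer of Mef2c, had 20.2 FPKM in WT against 11.3 in KD (log2 difference -0.78). The 5 kept outflow tract and second heart field markers were lower in KD as well, and their part in the Foxh1 value was not tested. The group values of Mef2c were nearly equal in the same libraries, and a link between the values of Foxh1 and Mef2c was not tested. Gata6 had the highest value of the list, 0.26, at 14.9 FPKM in WT against 17.96 in KD, and Gata4 had 45.1 FPKM in WT against 52.9 in KD. Tbx5, the neighbour of the targeted lncRNA, had 17.2 FPKM in WT against 15.7 in KD. Irx4, a ventricular homeobox gene that depends on Hand2, had 31.8 FPKM in WT against 27.6 in KD, opposite in direction to Hand2. The natriuretic peptide genes of the chamber myocardium went in opposite directions. Nppa had 2588 FPKM in WT against 2967 in KD (log2 difference 0.20), and Nppb had 485 FPKM in WT against 359.5 in KD (-0.43).

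**Figure D3:**
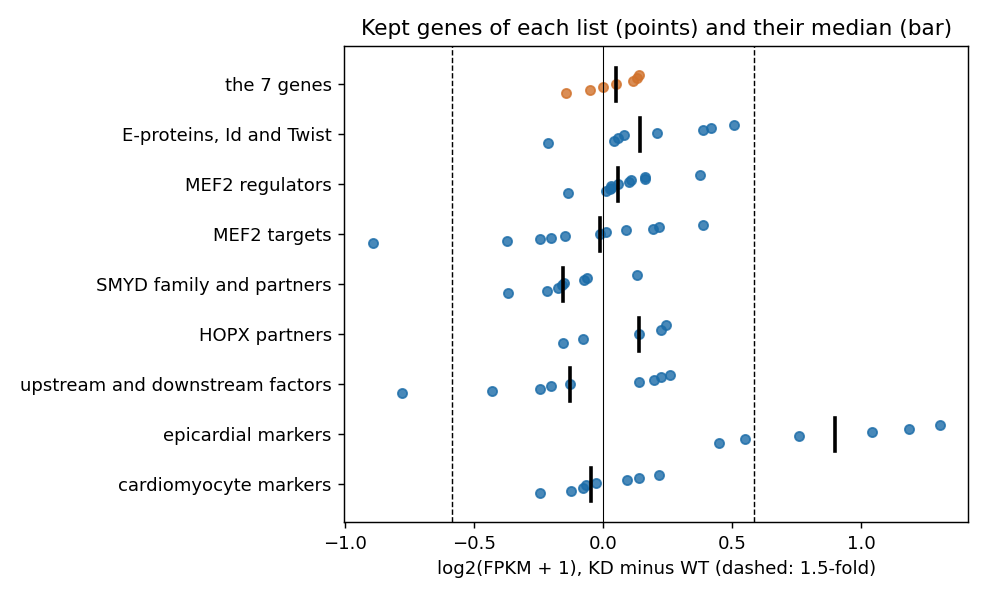
Each point is a kept gene, placed by its log2(FPKM + 1) difference, KD minus WT, in the row of its list, with a black bar at the list's median and dashed lines at 1.5-fold. The 7 genes cluster near 0, Tdgf1 and Foxh1 lie beyond the lower dashed line, and the epicardial markers lie to the right with a median of 0.90.

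Cell type markers differed unevenly between the groups. Of the 7 epicardial markers, 6 were kept and all 6 were higher in KD, where 50.9% of the kept genes were higher. On the log2(FPKM + 1) scale 4 were past 1.5-fold, where 2.2% of the kept genes were higher by that much. By the plain ratio 5 were, where the share was 4.62% of the kept genes above 0 in both groups. The summed level of all 7 epicardial markers was 47.3 FPKM in WT against 96.8 in KD. Single markers ran from 0.324 to 13.8 FPKM in WT and from 0.930 to 25.5 FPKM in KD, and none was at 0. The 8 cardiomyocyte markers had a median log2 difference of -0.05, the 6 endocardial markers -0.03 and the 5 erythroid markers 0.11. The 5 kept outflow tract and second heart field markers had -0.22. The lists share genes. Of the cardiomyocyte markers, Myh6 and Myl2 are also among the MEF2 targets. Nkx2-5 is also among the partners of Hopx and the upstream or downstream factors. The part of these cell types in the values of the 7 genes, and of the genes in the lists above, was not tested.

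The surroundings of the 7 genes were read by position, within 100 kb of each. The table holds 22 other genes there, of which 11 were kept, 7 of them higher and 4 lower in KD, and 0 past 1.5-fold. Of all kept genes 50.9% were higher in KD, and past 1.5-fold 2.2% were higher and 1.46% lower. The lowest value was that of Spink2, near Hopx, with 8.69 FPKM in WT against 6.48 in KD (log2 difference -0.37). The highest was that of Lysmd4, whose table position lies 5358 bases from Mef2a, with 4.07 FPKM in WT against 5.31 in KD (0.31). The noncoding gene 1700113A16Rik, 2392 bases past the end of Mef2d in the table, had 7.30 FPKM in WT against 8.55 in KD (0.20). Near Smyd1, Thnsl2 had 3.22 FPKM in WT against 2.29 in KD (-0.36), and Krcc1 had 33.5 FPKM in WT against 34.1 in KD. Near Hand1, Sap30l had 5.02 FPKM in WT against 5.59 in KD, and Galnt10 had 2.08 FPKM in WT against 2.13 in KD. The other kept neighbours were Srp72 near Hopx (log2 difference 0.04) and, near Mef2d, Apoa1bp (0.09), Iqgap3 (-0.09) and Gpatch4 (-0.21). Around Hand2 the table holds 0 other genes, and around Mef2c 2 that were listed at 0 in both groups.

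In the GENCODE M21 annotation of the same build, 5 of the 7 genes overlap a gene on the opposite strand. These pairs are Hand2 with Hand2os1, Mef2a with Lysmd4, Mef2d with 1700113A16Rik, Smyd1 with Krcc1 and others, and Hopx with Hopxos. For Hand2os1 this annotation gives a start 3250 bases past that of Hand2, so that the genes overlap, whereas the RefSeq start printed with the Hand2 window lies upstream of Hand2. Smart-Seq2 libraries do not keep the strand of the RNA, so reads from stretches that such pairs share cannot be assigned by strand. Hand2os1 and Hopxos are not analysed here.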

How the data were processed

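RNA from ventricles of 3 WT and 3 KD embryos was made into Smart-Seq2 libraries and sequenced single-end. According to the submitters' processing notes TopHat, Bowtie2 and Cuffdiff were used with mm10, and versions, annotation and options are not given in the sources used here. The authors deposited 1 Cuffdiff table with an FPKM value per gene and group, the KD group under the name KO. The columns of the authors' own comparison (fold change, test statistic, p-value, q-value) were not used, and 0 columns of single samples were present. Depth is unknown.

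Differences were log2(FPKM + 1), KD minus WT, which understates changes of low genes. Genes with at least 1 FPKM in either group were kept, without 2 genes listed as having too many reads. A fold of 1.5 served as the threshold for counts, and no test was made. Since 1 of 79 ribosomal protein genes was at 0 in both groups, a 0 is reported as listed at 0. Positions are those of the table with 1 added to the start, and 99.1% of 20824 symbols overlapped the gene in GENCODE M21.

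The members and the gene lists were chosen with earlier results of these data known. Named genes were the 7 genes, kept neighbours within 100 kb, and of each of the 6 lists of partners, regulators and targets the kept genes past the fold, the highest and the lowest, with 10 listed regulators and targets. The cell type marker lists fell outside this rule and are given by counts and ranges. Tcf4, Nppb, Mef2b and the single markers were named outside it, with their values seen. The sums and ratios between gene groups were chosen after the values were seen. Alternatives were other pseudocounts, filters, folds and scalings. The counting script was tested on artificial data with known changes. Python 3.11.15, NumPy 2.4.6, pandas 2.3.3 and Matplotlib 3.10.9 were used.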

Additional observations from a re-analysis of the deposited data

How the results depend on the processing

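No paired analysis was possible because only pooled group values were at hand, and for the same reason no replicate could be left out. The log2 differences of the 7 genes were recomputed with a pseudocount of 0.1, with none, less the median difference, and with group sums made equal. In all 28 cases the value moved by less than 0.1, at most by 0.03, and the sign changed in 0. Equal sums lowered the log2 difference of the median kept gene by 0.03, and 45.1% of the kept genes were then higher in KD. Under them Mef2a stood at -0.08, Mef2c at -0.03 and Mef2d at 0.02. The number of the 7 genes past the fold was 0 at each fold and scaling tried. The medians of the 6 lists moved by less than 0.1 in all 36 cases, with 0 changes of sign, but some are small enough for that to be a large part of them. At 10 FPKM or more the median was 0.06 for the E-protein, Id and Twist list, 0.03 for the MEF2 regulators and -0.0026 for the MEF2 targets. With equal sums the latter lists stood at 0.03 and -0.04, and with no filter the MEF2 targets at -0.0026. The background shares moved with the settings. The share of genes higher in KD past the fold was 1.2499% with no filter, 1.43% at 10 FPKM or more, 4.48% with a pseudocount of 0.1 and 4.62% with none. At log2 differences of 0.32 and 1 it was 8.8% and 0.646%. The share lower in KD was 0.803% with no filter, 3.1% with a pseudocount of 0.1 and 3.1% with none, and 6.4% and 0.577% at log2 differences of 0.32 and 1. With depth unknown, values of genes at low FPKM, Tdgf1 and Twist1 among them, are less certain.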
